A study of Homo sapiens with 9 samples.

Results

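The MYC, MAX and MXD network is a family of transcription factors that pair through basic helix-loop-helix leucine zipper domains. The 10 members were taken by gene symbol from the gene table, and they were MYC, MYCL, MYCN, MAX, MXD1, MXD3, MXD4, MXI1, MNT and MLX. They are 10 of the 59452 genes in that table, and all 10 were among the 15528 genes that passed the filter on low counts. Each value came from bulk RNA-seq of MDA-MB-453, an established human triple-negative breast cancer cell line. There were 3 groups of 3 libraries, each collected after 48 hours. The first group was in regular attached culture with vehicle (DMSO), and the second was in forced suspension over poly-HEMA, a coating that prevents adhesion, with the same vehicle. The third group was in forced suspension with 10 μM AT0174, a small molecule that inhibits the tryptophan-catabolizing enzymes TDO2 and IDO1. All groups share 1 cell line with the genotype WT, and attached cells with AT0174 were not analysed here.

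MYC drives transcription of growth genes when it pairs with MAX, and the pair binds the E-box, a short DNA element. MXD1, MXI1, MXD3, MXD4 and MNT compete with MYC for MAX and recruit SIN3 and histone deacetylases to the same element, so they are known as antagonists of MYC. MLX forms a parallel branch, pairing with the glucose-responsive factors MondoA (MLXIP) and ChREBP (MLXIPL), and MGA is a further partner of MAX. MYC is widely expressed in triple-negative breast cancer and is known for driving ribosome production and nutrient use.

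The libraries held 36649997 to 48019126 estimated counts each. All 10 luminal epithelial markers were at 297 CPM or more in every library, including FOXA1 and GATA3, which are known in this line. Of 10 markers of immune, stromal, endothelial and basal cells, 9 were under 1 CPM in every library, and COL1A1 reached 149 CPM. The mitochondrial genome supplied 7.56 to 9.32% of counts in attached cells, 4.05 to 4.34% in suspended vehicle cells and 3.73 to 5.51% with AT0174. Attached replicate 3 had the highest of these shares, and it is named below where its removal changed a count. The study's methods describe the conditions as run in biological triplicate, and the labels do not say that replicates came from separate cultures. The p-values measure only the spread between these libraries. In bulk RNA, fewer cells of a type and less RNA per cell cannot be told apart.

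The E-box CACGTG reads the same on both strands, and the promoters are shown because this is the element that network proteins share. RefSeq promoter windows (GRCh38.p14) of 300 bases, 250 before to 50 after a start site, matched 9 of the 10 members (all but MYC) with 12 windows. CACGTG was present in 2548 of all 35116 windows (7.26%). By gene, it was present in 3 of the 9 members with a window, MXD4, MNT and MLX. Of all tested genes with a window, 1350 of 10722 (12.6%) held it. The MXD3 window held none, which says only that these letters are not in it. MXD3 and MXD4 are printed whole because their RNA was lower in suspension with AT0174 than in attached cells (values below), and MNT and MLX are printed around the element only. Capitals mark CACGTG, and every sequence reads 5′ to 3′ on the strand of its gene. MXD3 lies at chr5:177312703-177313002 (minus strand), MXD4 at chr4:2262060-2262359 (minus), MNT at chr17:2401228-2401273 (minus) and MLX at chr17:42567030-42567075 (plus).
MXD3 promoter: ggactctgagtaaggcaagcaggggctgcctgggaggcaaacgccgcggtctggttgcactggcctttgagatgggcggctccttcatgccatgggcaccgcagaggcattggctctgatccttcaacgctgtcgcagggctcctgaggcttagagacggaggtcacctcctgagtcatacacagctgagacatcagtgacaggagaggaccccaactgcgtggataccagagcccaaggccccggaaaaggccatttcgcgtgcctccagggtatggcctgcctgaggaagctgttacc
MXD4 promoter: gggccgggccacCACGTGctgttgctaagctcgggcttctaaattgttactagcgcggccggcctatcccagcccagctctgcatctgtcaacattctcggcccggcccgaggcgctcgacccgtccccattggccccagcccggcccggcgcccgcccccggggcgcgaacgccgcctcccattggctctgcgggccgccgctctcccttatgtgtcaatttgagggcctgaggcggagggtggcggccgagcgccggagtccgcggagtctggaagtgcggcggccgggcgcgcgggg
MNT E-box: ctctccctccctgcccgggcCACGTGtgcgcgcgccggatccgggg
MLX E-box: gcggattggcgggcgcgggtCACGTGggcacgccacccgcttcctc

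MYC climbed in the order of levels once cells were in suspension. Levels of different genes were compared as TPM, an abundance scaled for transcript length and library depth. In attached cells, the mean TPM was 90.4 ± 4.5 for MAX (SD, n = 3), 64.6 ± 3.0 for MXD3 and 55.5 ± 5.5 for MXD4. MLX, at 43.4 ± 2.0 TPM, and MYC, at 39.9 ± 3.7 TPM, followed, and the ranges of those 2 genes overlapped. Below them came MLXIP at 24.2 TPM, MNT at 19.6, MXI1 at 13.7 and MXD1 at 6.22. MGA at 1.81 TPM, MYCL at 1.12 and MYCN at 0.485 were the lowest, so MYC was the main MYC paralog in these cells. MLXIPL, which encodes ChREBP, had 0 counts in the 3 attached libraries and at most 1 count in any other.

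In suspension with vehicle, MYC reached a mean of 60.6 ± 3.4 TPM, second after MAX at 102 ± 7.9, and its range overlapped that of MXD4 at 56.7 ± 4.2. MXD4 in turn overlapped MXD3, at 54.9 ± 2.3 TPM. With AT0174, MYC at 63.9 ± 0.20 TPM was again second to MAX, above MXD3 at 54.1 ± 2.3 and MXD4 at 48.8 ± 0.95, without overlap between neighbors in this order. MLXIP, MNT, MXI1, MXD1, MGA, MYCL and MYCN followed in the same order in all 3 groups, although the ranges of MLXIP and MNT overlapped with AT0174.

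**Figure D1:**
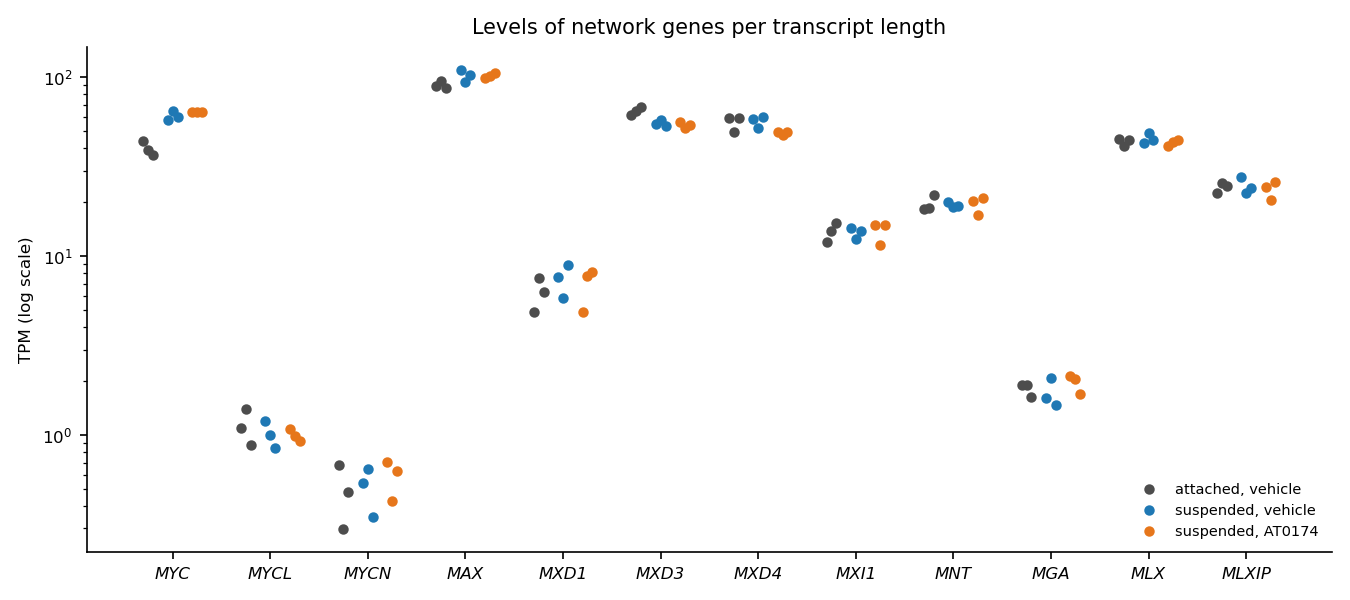
TPM of 12 network genes on a log scale, with 1 point for each library and colors for the 3 groups. MYC moves from a mean of 39.9 TPM in attached cells to 60.6 and 63.9 in the suspended groups, while MAX is the highest gene and MYCN the lowest of the 12 in each group.

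Suspension raised MYC RNA. The first comparison, suspended against attached cells with vehicle, asks what loss of attachment does to these genes. MYC (ENSG00000136997, chr8:127735434-127742951, plus strand, GRCh38) was at 60.02, 58.38 and 53.51 CPM in attached cells and at 78.37, 83.38 and 77.91 CPM in suspended cells. CPM are counts scaled to the depth of each library, here after TMM normalization. Every suspended library was above every attached one. MYC was 1.39-fold higher, a log2 fold change of 0.48 ± 0.046 (SE), with an adjusted p of 4.4e-05 in edgeR's quasi-likelihood test. By p, MYC ranked 63 of the 15528 genes, and by size of fold change it ranked 1584, so the change was precise rather than large.

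MXD3 RNA fell in the same comparison. MXD3 (ENSG00000213347, chr5:177301461-177312757, minus strand) encodes an antagonist that is known from proliferating cells. It was at 37.88, 40.09 and 44.37 CPM in attached cells and at 32.66, 32.87 and 31.98 CPM in suspended cells. The attached libraries were all higher and spread more widely than the suspended ones. The log2 fold change was -0.33 ± 0.055 (edgeR quasi-likelihood, adjusted p = 0.0019). MXD3 exons overlap those of RAB24 on the same strand and PRELID1 on the opposite one in GENCODE, and the strand setting of the counting is not given in the sources used here. RAB24 was also lower, by a log2 fold change of -0.16 (adjusted p = 0.025), and PRELID1 had 0.12 (adjusted p = 0.052). Reads shared with these neighbors cannot be told apart here, so the size of the MXD3 change is uncertain. Exons of MXD1 likewise overlap SNRNP27, which was lower (log2 fold change -0.18, adjusted p = 0.043), those of MAX overlap FNTB, and those of MLX overlap PSMC3IP.

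These were the 2 of 10 members called in the comparison, beside 21.2% of all tested genes (10.4% higher and 10.8% lower). The members' share is therefore near that of all genes. The 10 members had a median log2 fold change of -0.03, beside a median of 0.00 over all tested genes. Leaving out any library or using any other test or filter left both calls in place, and without mitochondrial genes MYC had a log2 fold change of 0.48 and MXD3 -0.33.

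MAX, the common partner, was at 60.99, 61.86 and 61.85 CPM attached and at 67.34, 60.73 and 64.14 CPM suspended. These groups overlapped, and the log2 fold change of 0.06 had a 95% interval of -0.02 to 0.14. MNT, an antagonist present in most cell types, was at 33.23, 35.72 and 38.16 CPM attached and at 33.87, 34.41 and 33.78 CPM suspended. Its interval ran from -0.17 to 0.03. MXD4 was at 76.33, 74.90 and 83.04 CPM attached and at 76.82, 73.68 and 79.62 CPM suspended, with an interval of -0.11 to 0.06. MLX, the hub of the parallel branch, had an interval of -0.10 to 0.05. For MAX, MNT, MXD4 and MLX, shifts beyond 0.2 on the log2 scale lie outside the intervals.

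The remaining members were measured less precisely. MXD1, which is known from differentiating cells, was at 16.39 to 19.75 CPM over all 6 libraries, with an interval of -0.17 to 0.10. MXI1, the antagonist also called MXD2, was at 11.84 to 14.96 CPM, with an interval of -0.20 to 0.21. MYCL, at 1.68 to 2.66 CPM, had an interval of -0.59 to 0.10, and MYCN, at 0.526 to 1.02 CPM, had -0.60 to 0.57. The interval of MYCN holds changes as large as that of MYC in either direction, and that of MYCL holds such a change only as a fall. MLXIP (MondoA) was at 68.62, 69.28 and 70.94 CPM attached and 76.30, 77.35 and 72.13 CPM suspended, without overlap, but it did not pass the test (log2 fold change 0.11, adjusted p = 0.087), and 38.1% of all tested genes had no overlap. MGA had a log2 fold change of 0.00, with an interval of -0.16 to 0.15.

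**Figure D2:**
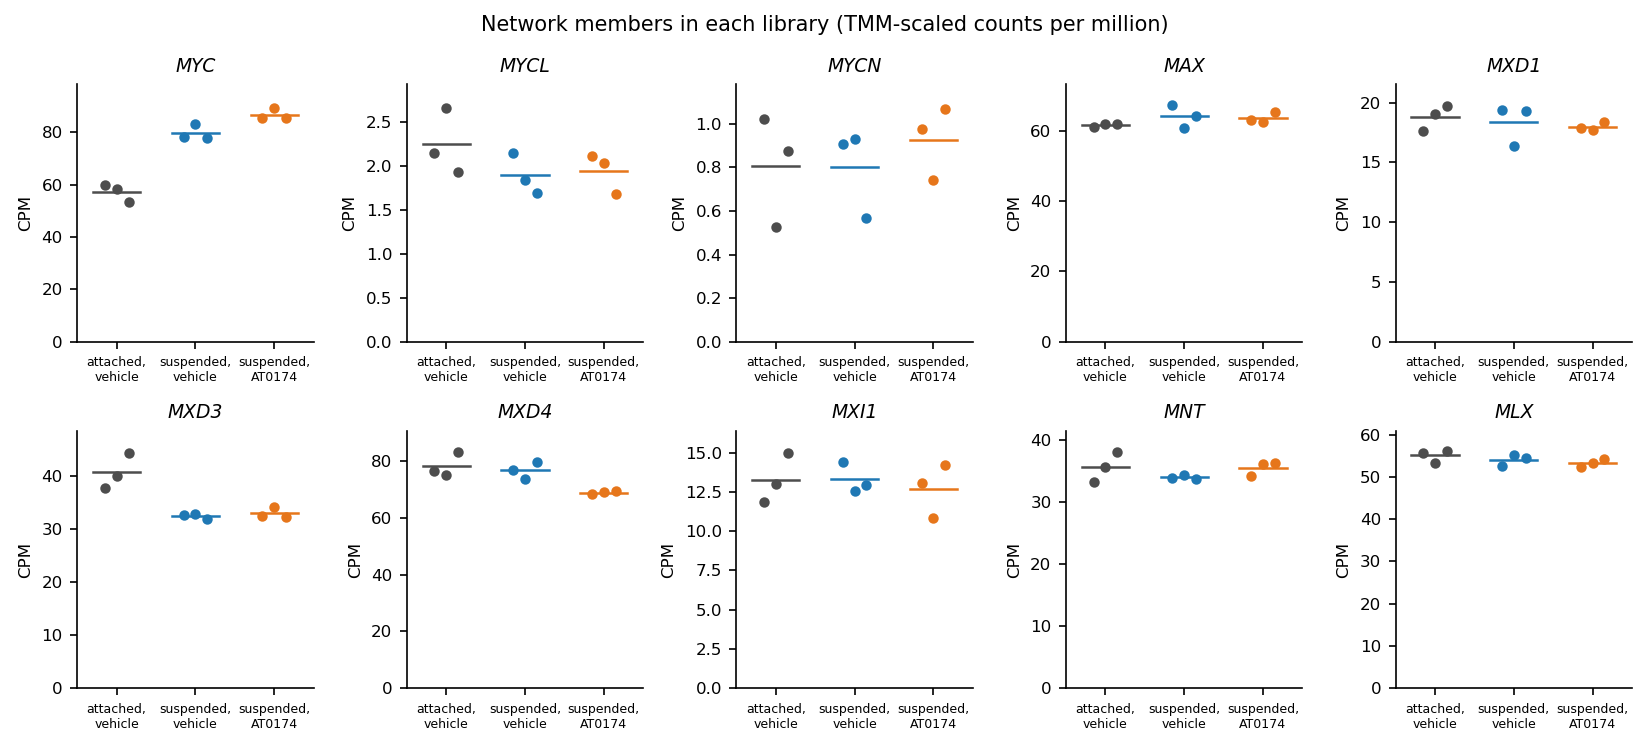
CPM of each of the 10 members, with 1 point for each library, a line at the mean of each group and a separate axis from 0 for each gene. MYC is higher and MXD3 lower in both suspended groups than in attached cells without overlap, and MXD4 is at 68.24 to 69.34 CPM with AT0174, below every vehicle library.

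AT0174 left no member past the test. The second comparison, AT0174 against vehicle in suspended cells, asks what inhibition of TDO2 and IDO1 does once cells are detached. It called 121 of 15528 genes, which is 0.779% (0.522% higher and 0.258% lower), and 0 of the 10 members in edgeR's quasi-likelihood test. DESeq2 and limma-voom also called 0 members, and 2 members, MYC and MXD4, had an unadjusted p under 0.05, beside 9.02% of all genes. Without a low-count filter, 1 member was called, MXD4.

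MYC was at 85.64, 89.24 and 85.39 CPM with AT0174, against the 77.91 to 83.38 CPM of suspended vehicle cells. The groups did not overlap, as was the case for 15.4% of tested genes. The log2 fold change was 0.12 ± 0.045, with an interval of 0.03 to 0.21 and an adjusted p of 0.41. A fall of MYC with the inhibitor lies outside this interval. The interval is not adjusted for the number of genes tested, and MYC was not called in either direction. MXD4 (ENSG00000123933, chr4:2247432-2262109, minus strand) is an antagonist known from resting cells. It was at 68.24, 68.93 and 69.34 CPM with AT0174, below every suspended vehicle library. Its log2 fold change was -0.16 ± 0.044 (edgeR, adjusted p = 0.18). Without a low-count filter the value was -0.15 and the adjusted p was 0.039.

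MXD3 was at 32.57, 34.30 and 32.30 CPM with AT0174 and overlapped the vehicle group (log2 fold change 0.02, interval -0.08 to 0.13). MAX had an interval of -0.09 to 0.07, MLX -0.09 to 0.05 and MNT -0.03 to 0.16. MXD1 had an interval of -0.16 to 0.10 and MXI1 one of -0.27 to 0.14. The low MYC paralogs had intervals of -0.30 to 0.39 for MYCL and -0.36 to 0.78 for MYCN. In each of these 8 genes the groups overlapped.

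The third comparison, AT0174 in suspension against vehicle in attached cells, differs in both culture and treatment, and it shares its samples with the other 2. MYC was 1.51-fold higher (log2 fold change 0.60 ± 0.046, edgeR adjusted p = 4.7e-06). MXD3 was lower, with a log2 fold change of -0.30 ± 0.054 (adjusted p = 0.0021), and MXD4 was lower, with -0.18 ± 0.044 (adjusted p = 0.010). These 3 of 10 members were called, beside 24.0% of all tested genes (12.2% higher and 11.8% lower). The MXD4 call was lost with counts rebuilt from TPM, at an adjusted p of 0.061 and a log2 fold change of -0.24.

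**Figure D3:**
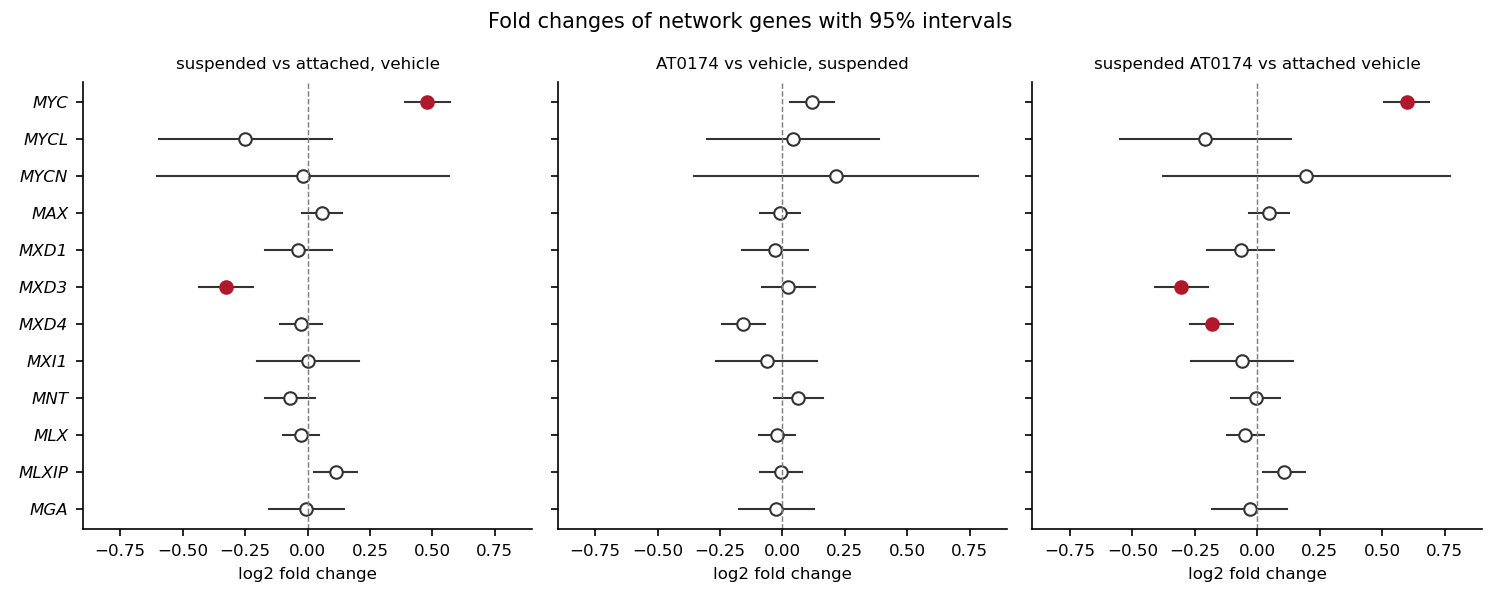
Log2 fold changes of 12 network genes in the 3 comparisons, with bars for 95% intervals and filled points for genes with an adjusted p under 0.05. MYC and MXD3 are filled in the first panel, none in the second, and MYC, MXD3 and MXD4 in the third.

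The RNA ratio of MYC to its antagonists was higher in suspended than in attached libraries. The TPM of MYC divided by the summed TPM of MXD1, MXD3, MXD4, MXI1 and MNT was 0.283, 0.253 and 0.216 in attached cells. It was 0.372, 0.438 and 0.388 in suspended vehicle cells and 0.437, 0.471 and 0.434 with AT0174. The suspended groups both lay above the attached group without overlap, and they overlapped each other. The log2 difference was 0.68 between suspended and attached vehicle cells (two-sided exact permutation p = 0.1, the smallest that 3 against 3 libraries can give). Between AT0174 and vehicle in suspension it was 0.17 (exact permutation p = 0.3). The ratio uses the same MYC values as above and is no separate evidence. The summed antagonist TPM was 155.54, 153.5 and 169.9 in attached cells. It was 154.42, 146.6 and 154.65 in suspended vehicle cells, with overlap, and 145.82, 135.55 and 147.73 with AT0174, below the attached libraries. MXD3 and MXD4 supplied 70.1 to 77.4% of the antagonist TPM in every library. The TPM of MAX was 0.421 to 0.516 times the summed TPM of MYC and its antagonists, with overlapping groups. RNA ratios say nothing of protein or of which pairs form.

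No single isoform of a member passed the test. Of 114 annotated transcripts of the members, 61 passed the filter on low counts, and 0 were called in each of the 3 comparisons by edgeR, beside 0.252% of all transcripts in the first, 0.0345% in the second and 0.591% in the third. At an unadjusted p under 0.05 there were 8, 2 and 6, beside 13.5%, 3.85% and 13.1% of all transcripts. MYC RNA came mainly from ENST00000377970, with 41.2 to 56.3% of MYC TPM in attached libraries, and from ENST00000524013, with 35.9 to 46.6%. In the first comparison these had log2 fold changes of 0.47 (adjusted p = 0.16) and 0.58 (adjusted p = 0.072), beside the 0.48 of the whole gene. The leading MXD3 transcript, ENST00000513063, held 51.9 to 59.5% of MXD3 TPM in attached cells and 60.4 to 64.9% in suspended vehicle cells, without overlap, and 57.7 to 66.3% with AT0174. As a share of counts rather than TPM, its mean was 45.2% in attached cells and 49.4% in suspended vehicle cells. The split of MAX over 20 annotated transcripts varied widely between replicates, and ENST00000557746 alone ranged from 10.3 to 32.6%. Salmon's assignment error between isoforms was not included.

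Among genes that MYC is known to induce, the calls in suspension were all upward. Of 59 tested genes in 4 lists, 28 rose in suspended vehicle cells and 0 fell, beside 10.4% and 10.8% of all genes. The lists were chosen with earlier results of these data known, so these counts are a description and no test of the lists was made. Their median log2 fold change was 0.10, and 52 of the 59 were above 0, beside 50.0% of all tested genes, whose median was 0.00. Without attached replicate 3 the count was 16, without suspended vehicle replicate 2 it was 18, and with counts rebuilt from TPM it was 12. Removing mitochondrial genes gave 27. The individual changes were small, and the largest of the 28 was 0.33 on the log2 scale (TFB2M).

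In the nucleolar list, 10 of 22 rose. WDR43, a factor of small ribosomal subunit assembly, had a log2 fold change of 0.26 (adjusted p = 0.0017), POLR1B, a subunit of RNA polymerase I, had 0.19 (adjusted p = 0.0059), and UTP20, a pre-rRNA processing factor, had 0.20 (adjusted p = 0.0061). With counts rebuilt from TPM, WDR43 had 0.084 (adjusted p = 0.37) and the POLR1B call was also lost (adjusted p = 0.19). In the metabolic list, 8 of 16 rose. HK2, the hexokinase that starts glycolysis, was at 208.1, 214.3 and 208.5 CPM in attached cells and at 262.3, 258.7 and 242.7 CPM in suspension. The groups were well apart, with a log2 fold change of 0.28 ± 0.034 (adjusted p = 0.0003). TFRC, the transferrin receptor, had 0.17 and DCTPP1, a nucleotide pyrophosphatase, had 0.23. ODC1, the entry enzyme of polyamine synthesis, had 0.15 and did not pass the test (adjusted p = 0.060). In AT0174-treated suspended cells against attached cells, 31 of the 59 rose and 0 fell, beside 12.2% and 11.8% of all tested genes. ODC1 was among those that rose (0.29, edgeR adjusted p = 0.0021).

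In the translation and folding list, 7 of 12 rose, including EIF5A (0.23), an elongation factor, TFB2M (0.33), a mitochondrial transcription factor, and TBRG4 (0.16), a mitochondrial RNA-binding protein. In the cell cycle list, 3 of 9 rose, namely CDK4 (0.11), the replication helicase subunit MCM4 (0.10) and the mitotic kinase PLK1 (0.10). Each of these 3 calls was lost without attached replicate 3 or suspended vehicle replicate 2 or 3, and the highest adjusted p over the alternatives was 0.14, 0.54 and 0.76. Among 10 general proliferation genes, CCNB1 (0.22), RRM2 (0.15) and CDC20 (0.11) rose, beside 10.4% of all tested genes. The calls of RRM2 (adjusted p = 0.055) and CDC20 (0.063) were lost without suspended vehicle replicate 2, and that of CDC20 also without replicate 3 (0.059) and with counts rebuilt from TPM (0.056). Of the luminal markers, 5 of 10 rose, beside 10.4% of all tested genes, with a median of 0.11. The share and the median were near those of the MYC-induced lists (28 of 59 and 0.10), although this list is of another kind.

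Among genes that MYC is known to repress, 4 of 8 tested rose in suspended vehicle cells, beside 10.4% of all tested genes. Of the 8, 0 were called lower, beside 10.8%, and 5 had log2 fold changes above 0, beside 50.0%. The share that rose was near that of the MYC-induced lists (28 of 59). CDKN1A, the cyclin-dependent kinase inhibitor p21, was at 59.34, 61.75 and 57.45 CPM attached and at 74.78, 76.01 and 78.98 CPM suspended, a log2 fold change of 0.36 ± 0.039 (edgeR adjusted p = 9.4e-05). NDRG1, a stress-responsive gene, was at 4.26, 3.49 and 3.76 CPM attached and at 6.64, 6.19 and 10.04 CPM suspended, a log2 fold change of 0.99 ± 0.21 (adjusted p = 0.0063). Suspended replicate 3 was the highest of these, and every suspended library was above the attached ones. CDKN1B (p27) had 0.15, a call lost with counts rebuilt from TPM (0.092, adjusted p = 0.36). THBS1, the matrix protein thrombospondin 1, had 0.23, a call lost without suspended vehicle replicate 2 (adjusted p = 0.053). CDKN2B, an inhibitor of CDK4 and CDK6, was at 3.424, 3.597 and 3.219 CPM attached and at 2.532, 2.698 and 2.686 CPM suspended. These groups did not overlap, and it did not pass the test (log2 fold change -0.37, adjusted p = 0.051).

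**Figure D4:**
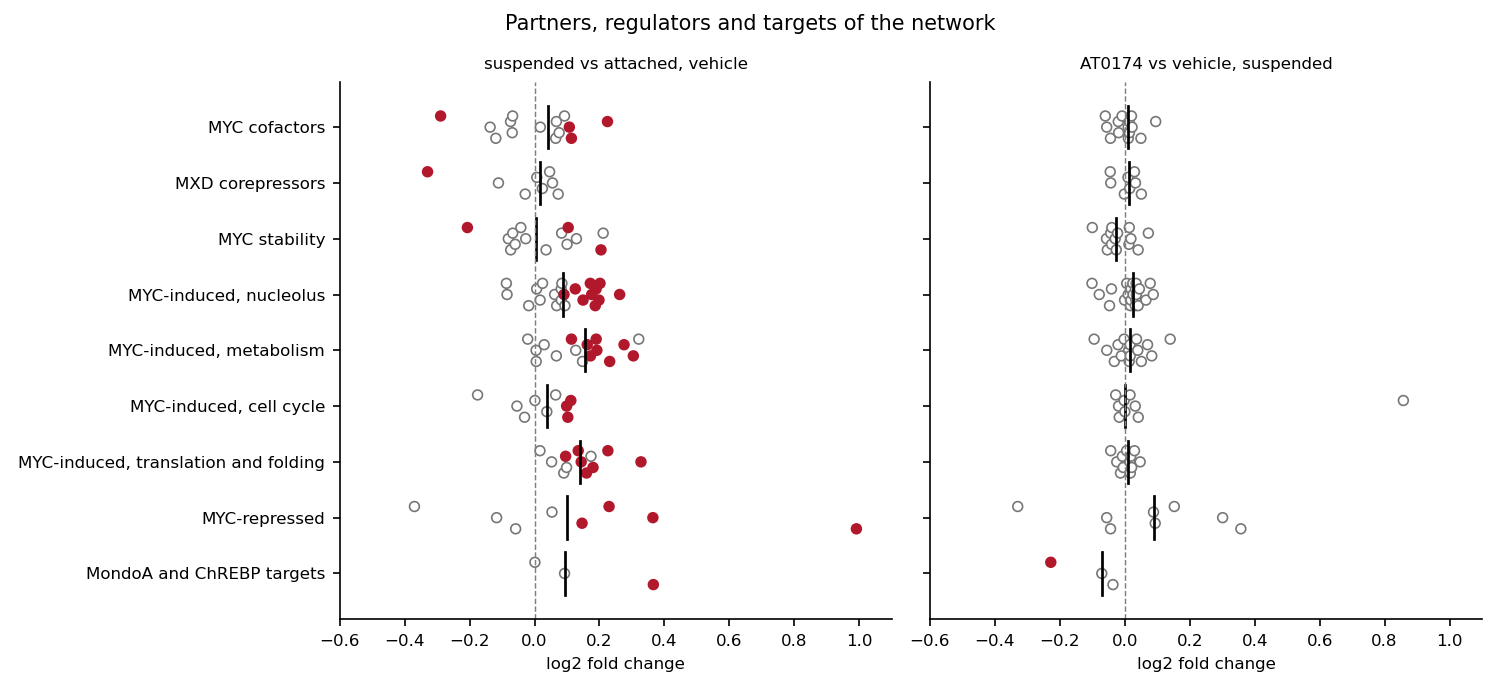
Log2 fold changes of partners, regulators and targets, with 1 point per tested gene, filled where the adjusted p was under 0.05, and a black line at the median of each list. In the left panel filled points in the 4 MYC-induced lists are all above 0, and in the right panel TXNIP, at -0.23, is the single filled point.

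Among partners and regulators of the network, calls were made in each of 3 lists, beside 21.2% of all tested genes. Of 14 MYC cofactors, 3 rose and 1 fell in suspension. TRRAP, the scaffold of histone acetyltransferase complexes, had a log2 fold change of 0.22 (adjusted p = 0.027), and the ATPase RUVBL1 and the chromatin adaptor WDR5 each had 0.11. The calls of TRRAP, RUVBL1 and WDR5 were made in 14, 9 and 13 of 18 alternatives. All were lost without attached replicate 1 or 2 or suspended vehicle replicate 2 and with counts rebuilt from TPM (highest adjusted p over all alternatives 0.10, 0.10 and 0.11). WDR5 was also lost without attached replicate 3. RUVBL1 was also lost without any other library of these groups, with no low-count filter and with 6 libraries. The median over the cofactors was 0.04.

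Of 8 corepressor genes, SIN3B was called. SIN3B is a scaffold to which MXD proteins bind, and it was at 55.76, 55.81 and 59.30 CPM attached and at 45.48, 44.82 and 45.70 CPM suspended. The groups were far apart, with a log2 fold change of -0.33 ± 0.037 (adjusted p = 0.00015). Its paralog SIN3A and the histone deacetylases HDAC1 and HDAC2 were not called. Of 14 regulators of MYC stability, 2 rose and 1, FBXW7, fell, with a log2 fold change of -0.21 ± 0.036 (adjusted p = 0.0025). FBXW7 is the ubiquitin ligase subunit that marks MYC protein for degradation, and it was at 94.76, 91.80 and 94.01 CPM attached and at 79.07, 78.96 and 85.06 CPM suspended. PPP2R5A (0.20), a phosphatase subunit, rose, a call that was lost without attached replicate 3 or suspended vehicle replicate 2 or 3 (adjusted p up to 0.060). PVT1, the noncoding neighbor of MYC, was at 9.72 to 11.43 CPM over all 9 libraries and was not called. CASC11 and MYCNOS, antisense RNAs that overlap MYC and MYCN, did not pass the filter.

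With AT0174 in suspension, 0 of the 59 MYC-induced genes were called by edgeR, DESeq2 or limma-voom, and 4 had an unadjusted p under 0.05 (NOP58, UTP20, ODC1 and TFRC). Their median log2 fold change was 0.02, beside 0.00 over all genes. No cofactor, corepressor, stability gene or MYC-repressed gene was called by edgeR, DESeq2 or limma-voom in this comparison. At an unadjusted p under 0.05 there were 0 in the first 3 of those lists and 1, THBS1, in the last.

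Of the 155 listed genes, not all of which were tested, 1 was called with AT0174 in suspension. That share is near the 0.779% of all tested genes called. The gene called was TXNIP, a target of the parallel MLX branch. TXNIP, an inhibitor of glucose uptake and the best-known target of MondoA and MLX, fell with AT0174. It was at 180.5, 187.6 and 204.1 CPM in suspended vehicle cells and at 161.5, 164.3 and 163.0 CPM with AT0174. All AT0174 libraries were below all vehicle libraries, attached ones included, which were at 189.4, 196.1 and 186.4 CPM. The log2 fold change was -0.23 ± 0.042 (edgeR adjusted p = 0.024), beside 0.258% of all genes called lower. The call was made in 12 of 18 alternatives. It was lost without suspended vehicle replicate 2 (adjusted p = 0.061) or 3 (0.073), without AT0174 replicate 1 (0.095), 2 (0.076) or 3 (0.095), and with counts rebuilt from TPM (0.14).

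ARRDC4, a related arrestin and a second known target, did not move with TXNIP. It rose with suspension, from 20, 22.44 and 21.14 CPM to 26.30, 26.82 and 28.75 CPM (log2 fold change 0.37 ± 0.055, adjusted p = 0.00097), where TXNIP had a log2 fold change of 0.00. With AT0174 it was at 25.67, 27.42 and 26.79 CPM and overlapped the vehicle group. Of 4 listed targets, 3 were tested, and 1 of them was called in each of these comparisons. MLX and MLXIP themselves overlapped between AT0174 and vehicle in suspension. RNA of the 2 genes says nothing of the nuclear entry of MondoA protein.

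The promoters of TXNIP and ARRDC4 are shown because these targets were called in different comparisons. ARRDC4 held CACGTG. The first TXNIP window held no CACGTG but a pair of E-box-like sites, CACGAG and again CACGAG after 5 bases of any kind, searched on both strands. That motif was in 2 of 35116 windows (0.0057%), which belonged to TXNIP and KCTD5, and it was chosen from knowledge of the TXNIP promoter. Capitals mark these elements in TXNIP (chr1:145996530-145996829, minus strand) and ARRDC4 (chr15:97960453-97960752, plus strand) of GRCh38.p14.
TXNIP promoter: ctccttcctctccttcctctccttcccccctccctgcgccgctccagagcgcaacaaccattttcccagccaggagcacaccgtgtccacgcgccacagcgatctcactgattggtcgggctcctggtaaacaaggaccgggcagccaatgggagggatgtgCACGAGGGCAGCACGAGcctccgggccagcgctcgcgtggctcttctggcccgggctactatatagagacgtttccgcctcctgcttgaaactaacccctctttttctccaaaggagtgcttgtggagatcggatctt
ARRDC4 promoter: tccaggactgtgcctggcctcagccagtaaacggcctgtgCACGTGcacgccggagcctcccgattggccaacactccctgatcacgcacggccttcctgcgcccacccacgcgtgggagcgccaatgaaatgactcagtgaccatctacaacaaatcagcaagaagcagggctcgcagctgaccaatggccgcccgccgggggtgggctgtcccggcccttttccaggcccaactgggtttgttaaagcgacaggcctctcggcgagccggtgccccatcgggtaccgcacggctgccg

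**Figure D5:**
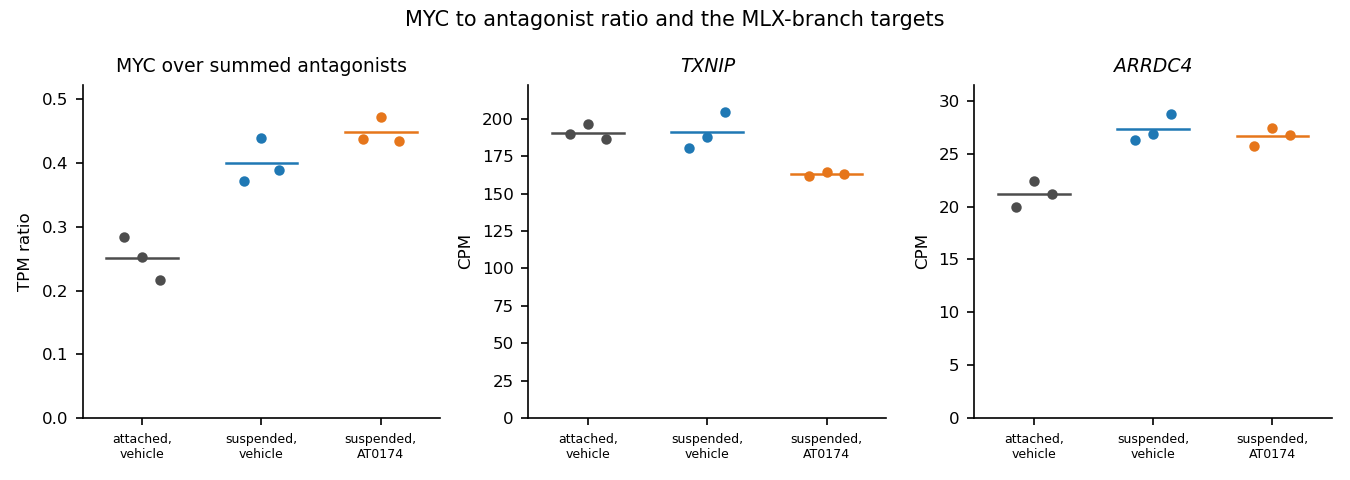
TPM of MYC divided by that of its 5 antagonists, and CPM of TXNIP and ARRDC4, with 1 point per library, a line at each group mean and axes from 0. The ratio and ARRDC4 separate both suspended groups from attached cells, whereas TXNIP, at 161.5 to 164.3 CPM with AT0174, separates AT0174 from both vehicle groups.

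The E-box was counted in the promoters of listed targets, with no test of a difference. Of the MYC-induced genes with a window, 28 of 47 (59.6%) held CACGTG, beside 1350 of 10722 tested genes (12.6%). In suspended against attached vehicle cells, 14 of the 28 with the element and 9 of the 19 without it rose. In AT0174-treated suspended cells against attached cells, these were 17 of 28 and 8 of 19. Over all tested genes in the first of these comparisons, 14.1% of those with CACGTG and 11.7% of those without it rose, and 10.2% and 11.5% fell. The median log2 fold changes were 0.01 and 0.00. A match is not a bound site, and MYC also binds variants of the element.

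The genes whose pattern over the 9 libraries was most like that of MYC were RPL7L1 and SEH1L (Pearson r = 0.989 each), SLC12A2, PSMB6 and TM4SF1 (0.988 each). RPL7L1 is a ribosome assembly factor, SEH1L a nucleoporin, SLC12A2 an ion cotransporter, PSMB6 a proteasome subunit and TM4SF1 a membrane protein. SLC12A2 had a mean of 194 CPM in attached cells, 266 in suspended vehicle cells and 278 with AT0174. The most opposite patterns were those of ITGA3 (r = -0.997), the alpha chain of a laminin receptor, and of JAG1 and NF2 (-0.988 each), a Notch ligand and a tumor suppressor that senses cell contact. ITGA3 had means of 446, 397 and 385 CPM, in the same order of groups. Within the network, MXD3 had an r of -0.919 with MYC and MXD4 one of -0.716. These values describe log2 CPM over libraries that share group and depth, and no test was made of them.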

How the data were processed

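Per the labels and the study's methods, the authors obtained estimated counts with bcl2fastq 2.20.0.422, Cutadapt 3.4 in Trim Galore 0.6.7, STAR 2.7.9a on GRCh38, Salmon 1.10.1 and summing to 59452 genes with tximport, with no normalization. The score values deposited by transcript are TPM of 236920 transcripts, which the authors made with Salmon, scaled for effective length, before the files were deposited. The length columns deposited beside them are transcript lengths that Salmon wrote, not score values. Programs and versions are from the submitters' processing notes. The labels and the methods name different library kits, and strandedness is not given in the sources used here. Estimated counts were rounded, filtered with filterByExpr (15528 genes kept), scaled by TMM and fitted in edgeR 4.0.16 (R 4.3.3) with 1 quasi-likelihood fit over 9 libraries. Calls had a Benjamini-Hochberg adjusted p under 0.05 over all tested genes. Intervals are 1.96 SE to each side, a normal approximation that is somewhat narrower than the quasi-likelihood test would give. A 0 among the counts allows up to 3 counts, for counting error only. Alternatives used DESeq2 1.42.0, limma 3.58.1, other filters, counts rebuilt from TPM, 6 libraries, a replicate block, and each library left out. Scripts were tested on simulated data. Positions and overlaps are from GENCODE release 44.

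The members and the 15 gene lists were chosen with earlier results of these data known. Named were all members, MGA, MLXIP and MLXIPL, and of each list up to 3 called genes with the smallest p in each direction of a comparison. Also named were the 5 genes with the highest and 3 with the lowest r with MYC, over log2(CPM + 0.5). Transcripts were described where they held at least 10% of their gene's TPM. Of these, the text names those of MYC, the leading one of MXD3 and ENST00000557746 of MAX, and the others are not reported here. HDAC1, HDAC2, SIN3A, CDKN2B, NOP58, KRT18, GATA3, KCTD5, PVT1, CASC11, MYCNOS, overlapping genes and the counterparts of MXD3 and MXD4 were named after their values were seen. Single values of some listed genes are not reported here.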

Additional observations from a re-analysis of the deposited data

How the results depend on the processing

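In suspended against attached vehicle cells, 2 members were called under all 18 alternatives, and MYC had log2 fold changes of 0.43 to 0.52. Counts rebuilt from TPM gave 1726 genes called instead of 3297 and 12 MYC-induced genes instead of 28, and leaving out 1 library gave 1935 to 3260 genes and 16 to 25 MYC-induced genes, with 1935 and 16 without attached replicate 3 and 1951 and 18 without suspended vehicle replicate 2. For AT0174 against vehicle, DESeq2 called 239 genes instead of 121, no filter 499 (with 1 member and 1 MYC-induced gene) and counts rebuilt from TPM 35. Leaving out 1 library gave 63 to 128, with 63, 68 and 70 without AT0174 replicate 1, 2 or 3 and 66 and 65 without suspended vehicle replicate 1 or 3. For AT0174 against attached vehicle, counts rebuilt from TPM gave 2076 genes instead of 3724 and 13 MYC-induced genes instead of 31, and leaving out 1 library gave 2239 to 3680 and 20 to 29, with 2381 and 20 without attached replicate 3 and 2239 without AT0174 replicate 1. Member transcripts called there were 0 to 1, with 1 without attached replicate 3. The causes were not tested.

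The log2 fold changes that turned sign were of members that were not called. In suspended against attached vehicle cells, MXI1 was -0.00046 with DESeq2 size factors, -0.11 with counts rebuilt from TPM and -0.0063 with 6 libraries, and -0.075 to 0.097 with 1 library left out. MXD1 was 0.17 with counts rebuilt from TPM and -0.081 to 0.043 with 1 library left out, MYCN -0.24 to 0.19 and MXD4 -0.054 to 0.021. For AT0174 against vehicle, counts rebuilt from TPM gave 0.032 for MAX and 0.059 for MXI1. With 1 library left out, MAX was -0.052 to 0.022, MXI1 -0.15 to 0.038, MYCL -0.038 to 0.14, MXD1 -0.11 to 0.0064 and MXD3 -0.0026 to 0.035. For AT0174 against attached vehicle, MNT was 0.0044 with no filter and -0.055 to 0.045 with 1 library left out, MXD1 was 0.10 with counts rebuilt from TPM, and with 1 library left out MYCN was -0.029 to 0.40 and MXI1 -0.15 to 0.040. The log2 difference of the MYC ratio was 0.57 to 0.77, 0.12 to 0.23 and 0.74 to 0.93 over its alternatives in the 3 comparisons.

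Replicate numbers did not pair the libraries: deviations of same-numbered libraries correlated at -0.065 to 0.053, with 0 of 9 pairs over 0.1. With the replicate block, 3250, 146 and 3677 genes were called in the 3 comparisons, with 2, 0 and 3 members and 25, 0 and 29 MYC-induced genes. MYC then had log2 fold changes of 0.48, 0.12 and 0.60, and MYCN turned to 0.011 in the first.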

Other observations

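Besides the network, 5 of 10 luminal markers were called higher in suspension, beside 10.4% of all tested genes. XBP1, a factor of the secretory stress response, had a log2 fold change of 0.37 (edgeR adjusted p = 2.6e-05) and FOXA1 had 0.26 in suspended against attached vehicle cells. COL1A1, the single marker of another cell type that passed the filter, had -0.28 (adjusted p = 0.0018). With AT0174 in suspension, 0 of the 10 luminal markers were called by edgeR, DESeq2 or limma-voom, and 1, KRT18, had an unadjusted p under 0.05.

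MXD3 and MXD4 each had close counterparts over the 9 libraries. UVSSA, a DNA repair gene, had an r of 0.989 with MXD3, and YTHDF2, a reader of RNA methylation, had -0.986. GPR153, an orphan receptor, had an r of 0.986 with MXD4, and NIPSNAP1, a mitochondrial protein, had -0.988. These are descriptions over libraries that share groups, with no test.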
